A study of Mus musculus with 10 samples.

Results

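The 30 genes described here run the supply and disposal of cholesterol: control of the transcription factor SREBP2, the mevalonate and sterol steps of synthesis, sterol transport and esterification, the liver X receptors with genes of efflux and uptake, and the oxysterol hydroxylase Cyp39a1. They were taken by symbol from a list of the pathway, chosen with earlier results of these data known. They are 30 of the 52171 genes in the table. All 30 passed the filter on low values and were tested among 22458 genes. RNA was taken from bone marrow of leukemic mice, in which the MLL-AF9 fusion, a known oncogene of myeloid progenitors, had given rise to acute myeloid leukemia. Leukemia stem cells were defined in the sort by surface c-Kit, CD34 and CD16/32 in the absence of Sca-1 and of lineage markers. Their cell type label reads hematopoietic stem cell.

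The comparison asks how these genes differ in leukemia stem cells when 1 allele of the nucleoporin gene Nup214 is lost. The floxed control group held 5 libraries of genotype Nup214fl/+, which carry 1 floxed Nup214 allele and no recombinase. The Nup214 heterozygous group held 5 libraries of genotype Nup214fl/+,Tie2-Cre, in which Cre, driven by the Tie2 promoter in endothelial and blood cells, removes that allele. MLL-AF9 leukemia was common to both groups. Cre was present in the heterozygous group only, so an effect of Cre and one of Nup214 loss cannot be told apart. Age, the delivery of MLL-AF9 and whether each library was a separate mouse are not stated in the labels. The p-values therefore rest on spread among libraries, some of which may be technical.

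Cholesterol is built from acetyl-CoA through mevalonate, farnesyl diphosphate and squalene, and the enzymes of this route are largely transcribed under SREBP2. When membranes hold enough sterol, Insig proteins keep SREBP2 and its escort Scap in the endoplasmic reticulum. Oxysterols, the oxidised forms of cholesterol, act through the liver X receptors, which raise export of cholesterol and limit its uptake.

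Values are normalized reads, that is reads per gene divided by 1 factor per library, and fold changes are differences of log2(normalized reads + 1), heterozygous minus control. A gene was called higher or lower where the adjusted p of limma over all genes tested was under 0.05. Depth was 20.8 to 30.1 M reads in the control libraries and 24.6 to 39.1 M in the heterozygous ones. Genes with a read numbered 26913 to 30277 in the control libraries and 19541 to 25684 in the heterozygous ones, without overlap. The part of this difference in the fold changes was not tested. Nup214 itself lay between 811 and 984 normalized reads in the controls and between 376 and 602 in the heterozygous libraries, with no overlap (log2 fold change -0.92, limma adjusted p 0.00144). Of the gate's markers, Kit was called lower (-0.89, limma adjusted p 0.0184) and so was Ly6a, which encodes Sca-1 (-0.83, limma adjusted p 0.0339), while Cd34, Fcgr3 and Fcgr2b were present in every library. The lineage-negative gate should hold few mature cells. The summed level of 12 mature neutrophil markers was 1137810.0 to 1675570.0 in the controls. In heterozygous libraries 1 and 2 it was 63265.5 and 108753.0, and in libraries 3 to 5 it was 1851530.0 to 4265710.0. The control sum came mostly from S100a8, Ngp, S100a9 and Camp, with control means of 536918, 298654, 272227 and 249250. Retnlg, Mmp8 and Ly6g had control means of only 7.57, 9.12 and 66.8, with the rest of the list in between. Whether the controls held mature neutrophils was not tested. The sum of 12 erythroid markers was 24.0 to 88.3 in the controls, 8.59 and 120.1 in heterozygous libraries 1 and 2, and 2317 to 2804 in libraries 3 to 5, so those libraries stood apart within their group. No neutrophil marker of 12 was called, and 2 erythroid markers of 10 tested were called higher (Hba-a1 and Hbb-bt), with Slc4a1 at 0 in heterozygous libraries 1 and 2.

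In the heterozygous libraries, 3 oxysterol and liver X receptor genes were higher: Cyp39a1 4.37-fold, the receptor gene Nr1h3 3.28-fold and the uptake regulator Mylip 1.41-fold. Srebf2, which encodes SREBP2, and Pmvk, a kinase of the mevalonate route, were lower, at 61.3% and 64.9% of the control mean. The other 25 members did not pass the test, among them 17 of the 18 enzymes of synthesis. The members called higher were 10% of the 30, beside 5% of all genes tested, and those called lower were 6.67%, beside 8.01%. Among genes with a mean of at least 100 normalized reads, which hold 27 of the members, 7.41% of members were called higher and 7.41% lower, beside 10.2% and 3.54% of genes. The median log2 fold change of the members was -0.01, with 15 above 0 and 15 below (20 below with quantile or upper quartile scaling and 12 with TMM), beside -0.19 over all genes tested and 0.08 over those with a mean of at least 100. Scaling shifts this background: the median of all genes was -0.02 with quantile normalization, -0.24 with upper quartile scaling and -0.13 with TMM scaling. Of all calls, 38.4% were higher, against 60.1%, 29.4% and 48.4% under those scalings.

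**Figure D1:**
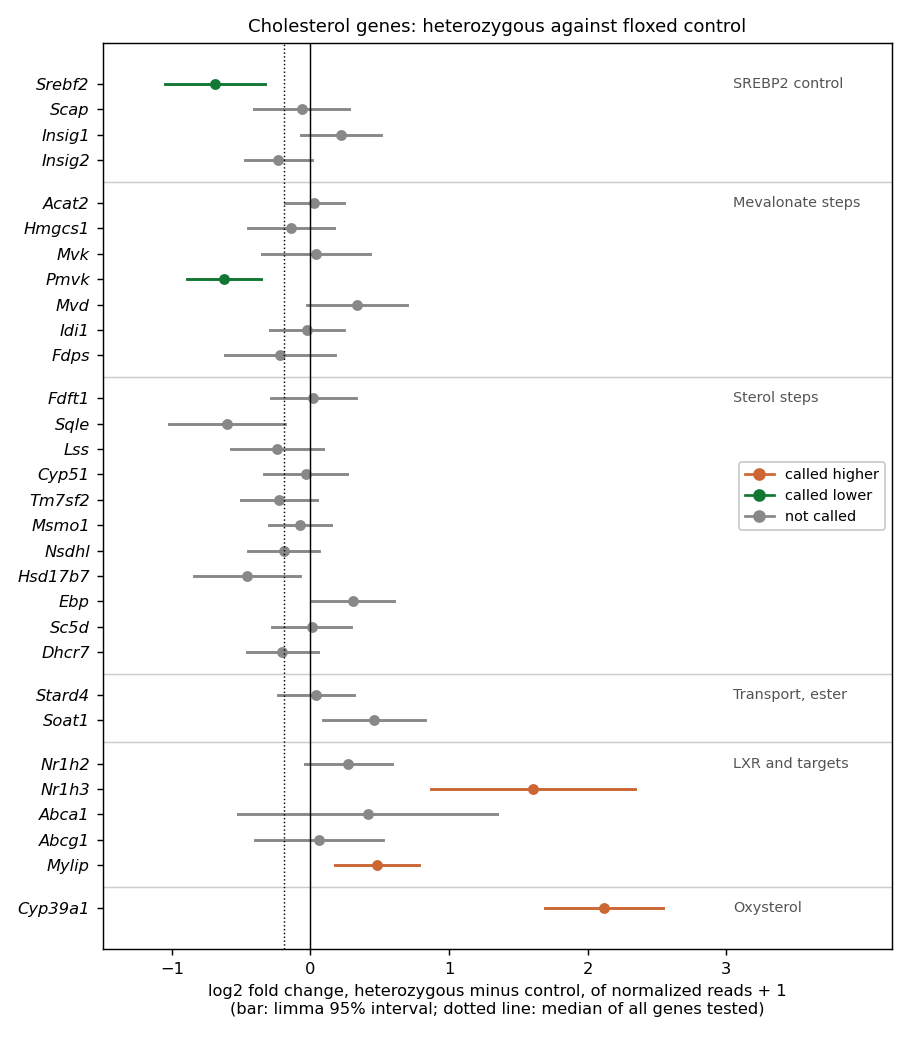
Log2 fold change of each of the 30 members (heterozygous minus floxed control, of normalized reads + 1) with its limma 95% interval, grouped by step; the dotted line is the median of all genes tested. The intervals of Srebf2 and Pmvk lie below 0, those of Nr1h3, Mylip and Cyp39a1 lie above 0; those of Sqle, Hsd17b7, Ebp and Soat1 also lie to one side of 0, without an adjusted p under 0.05.

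Promoters of Srebf2, Pmvk, Hmgcs1, Nr1h3 and Mylip are shown because Srebf2 and Pmvk were lower, Nr1h3 and Mylip were higher, and Hmgcs1, a classical SREBP2 target, holds a sterol element. Each is the 250 bases before a RefSeq start site in build GRCm38.p6, 5′ to 3′ on the gene's strand. Capitals mark matches to TCACNCCAC, a form of the sterol regulatory element, or to CCAAT, the NF-Y box, searched on both strands, so that ATTGG is a CCAAT on the other strand. The regions are chr15:82147019-82147268 (plus strand) for Srebf2, chr3:89454291-89454540 (plus) for Pmvk, chr13:119690101-119690350 (plus) for Hmgcs1, chr2:91195117-91195366 (minus) for Nr1h3 and chr13:45389492-45389741 (plus) for Mylip.
Srebf2: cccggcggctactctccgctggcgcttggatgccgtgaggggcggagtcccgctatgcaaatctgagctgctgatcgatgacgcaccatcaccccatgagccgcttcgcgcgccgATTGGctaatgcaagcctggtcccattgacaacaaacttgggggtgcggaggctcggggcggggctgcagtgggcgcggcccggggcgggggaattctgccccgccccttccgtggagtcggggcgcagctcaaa
Pmvk: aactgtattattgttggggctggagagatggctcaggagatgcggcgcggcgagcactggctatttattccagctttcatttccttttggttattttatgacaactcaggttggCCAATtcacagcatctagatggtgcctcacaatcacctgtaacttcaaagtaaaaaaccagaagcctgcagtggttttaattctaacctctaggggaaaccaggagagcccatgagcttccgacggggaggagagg
Hmgcs1: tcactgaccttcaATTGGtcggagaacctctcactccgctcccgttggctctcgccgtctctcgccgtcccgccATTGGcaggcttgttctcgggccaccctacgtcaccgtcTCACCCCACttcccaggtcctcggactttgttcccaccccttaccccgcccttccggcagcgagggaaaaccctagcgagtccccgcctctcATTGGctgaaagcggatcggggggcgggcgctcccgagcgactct
Nr1h3: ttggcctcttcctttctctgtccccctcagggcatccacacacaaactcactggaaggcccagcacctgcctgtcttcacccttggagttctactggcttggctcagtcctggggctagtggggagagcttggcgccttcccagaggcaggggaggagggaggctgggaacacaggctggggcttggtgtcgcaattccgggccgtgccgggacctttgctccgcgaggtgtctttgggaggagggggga
Mylip: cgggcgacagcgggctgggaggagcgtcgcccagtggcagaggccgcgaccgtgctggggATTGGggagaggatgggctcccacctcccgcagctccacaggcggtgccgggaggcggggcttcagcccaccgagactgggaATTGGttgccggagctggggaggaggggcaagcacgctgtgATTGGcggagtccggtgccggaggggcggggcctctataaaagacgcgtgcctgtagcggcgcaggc

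RefSeq windows were matched for 24 of the 30 members, and Fdps, Fdft1, Sqle, Stard4, Abcg1 and Cyp39a1 had none. A CCAAT match stood in 19 of the 24 (79.2%), beside 39.8% of the 13213 tested genes with a window. It stood in 14 of 15 enzymes of synthesis and in Srebf2 (135 bases before the start). In Pmvk it stood at 136 bases in the window shown, and its other window held none. In the liver X receptor group it stood in 1 of 4 genes, Mylip, which held 3. Nr1h3, which was higher, held none in either of its windows. TCACNCCAC was found in 1 of the 24, Hmgcs1, at 137 bases before the start, beside 1.23% of tested genes. Only this exact form was searched, so other forms of the sterol element, and elements outside the windows, were missed. The Srebf2 window, for example, holds tcaccccat, which departs from it only at the last letter. So the CCAAT box was present in Srebf2 and Pmvk, which fell, and in most members with a window that did not pass the test. Of the members that rose, Mylip held it, Nr1h3 did not and Cyp39a1 had no window. The motif matches describe these letters and show no binding.

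Srebf2, which encodes the transcription factor SREBP2 and lies at chr15:82147181-82205379 on the plus strand of mm10, stood at 1590.3, 1194, 1084, 1094 and 821 normalized reads in control libraries 1 to 5. In heterozygous libraries 1 to 5 it stood at 534, 771, 795, 755 and 687. Every heterozygous value lay below every control value, with control library 1 far above the other controls and control library 5 just above heterozygous library 3. The mean was 1157 ± 279 (SD, n = 5) in the controls and 709 ± 105 (SD, n = 5) in the heterozygous libraries, a log2 fold change of -0.69 (SE 0.17, limma adjusted p 0.0213). The limma call was lost without control library 1, where the log2 fold change was -0.56 and the adjusted p of limma 0.0532. It was also lost with a replicate block (limma adjusted p 0.0518). An edgeR fit without control library 1, added after seeing the data, called Srebf2 lower. In these bulk samples, fewer cells that express a gene and less RNA per cell cannot be told apart, for Srebf2 as for the genes below.

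The partners of SREBP2 did not pass the test. Scap, the escort that carries SREBP2 to the Golgi, was at 666 ± 95.2 (SD, n = 5) in the controls and 646 ± 148 (SD, n = 5) in the heterozygous libraries. Insig1 and Insig2 are paralogs that anchor Scap in the endoplasmic reticulum. Insig1 was at 244, 181, 207, 263 and 241 in control libraries 1 to 5 and at 239, 274, 256, 261 and 288 in the heterozygous libraries. Its groups overlapped, with heterozygous libraries 1, 3 and 4 inside the control range. Insig2 was at 238, 268, 246, 238 and 239.7 in the controls and at 216, 217, 206, 206 and 201 in the heterozygous libraries. Every heterozygous value of Insig2 was below every control value, but the difference was small, to 85.1% of the control mean (log2 fold change -0.23, limma adjusted p 0.171), whereas that of Insig1 was 0.22 (limma adjusted p 0.269). Groups did not overlap for 3 members that were higher and for 5 that were lower (Srebf2, Insig2, Pmvk, Sqle and Hsd17b7), which is 10% and 16.7% of the members, beside 4.64% and 6.67% of all genes tested.

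**Figure D2:**
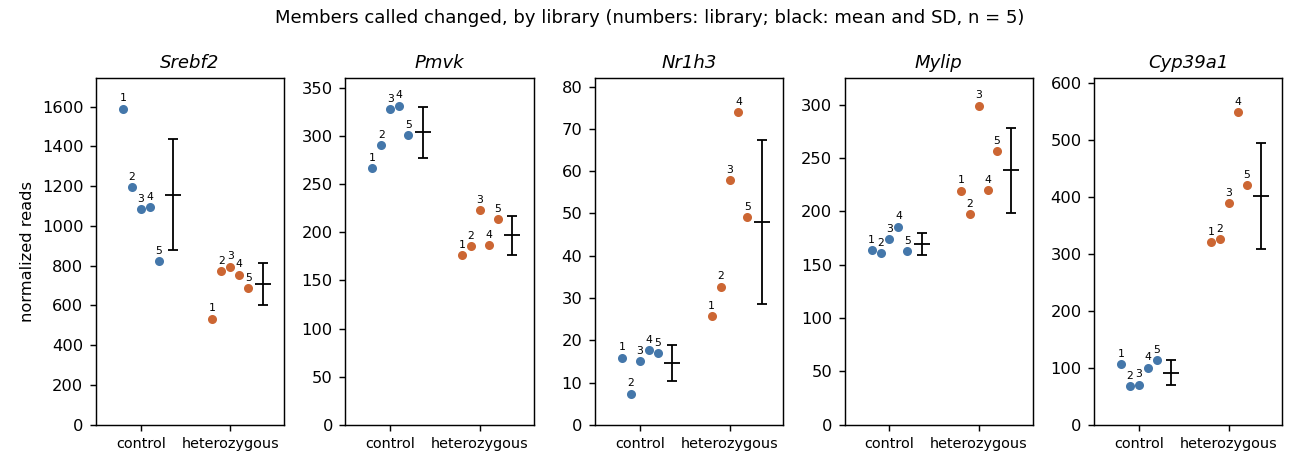
Normalized reads of the 5 called members in each library (points, numbered by library) with the group mean and SD (n = 5) in black; each axis starts at 0. Heterozygous and control points do not overlap for any of the 5 genes, and Cyp39a1 shows the widest gap, from 114 in the highest control to 319.7 in the lowest heterozygous library.

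In the mevalonate steps, 1 of 7 genes was called, Pmvk, the phosphomevalonate kinase that adds the next phosphate after mevalonate kinase (chr3:89454541-89469013, plus strand, mm10). It was at 267, 291, 328, 332 and 301 normalized reads in control libraries 1 to 5 and at 177, 186, 223, 187 and 214 in heterozygous libraries 1 to 5. All heterozygous values lay below all control values, and the spread within each group was narrow. The mean fell from 304 ± 27.0 (SD, n = 5) to 197 ± 20.1 (SD, n = 5), a log2 fold change of -0.62 (SE 0.13, limma adjusted p 0.00955), and the call held under each of the 23 alternatives.

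The other 6 genes of these steps did not pass the test. Mvk, the kinase before it, was at 172 ± 40.5 (SD, n = 5) and 175 ± 28.2 (SD, n = 5) in the control and heterozygous libraries (log2 fold change 0.04, 95% interval -0.35 to 0.43). Mvd, the decarboxylase after it, was at 173 ± 16.9 (SD, n = 5) and 222 ± 50.0 (SD, n = 5), with a log2 fold change of 0.34 (limma adjusted p 0.187). Idi1, the isomerase that makes the active isoprenoid unit, was at 519 ± 69.2 (SD, n = 5) and 508 ± 45.1 (SD, n = 5). At the entry to the route, the thiolase gene Acat2 was at 743 ± 44.4 (SD, n = 5) and 759 ± 54.6 (SD, n = 5), and Hmgcs1, which encodes HMG-CoA synthase, at 329 ± 34.5 (SD, n = 5) and 301 ± 50.4 (SD, n = 5). Intervals of the 3 genes Idi1, Acat2 and Hmgcs1 all held 0. Fdps, which makes farnesyl diphosphate for sterols and protein prenylation, was at 8830.2 ± 1548 (SD, n = 5) and 7709.7 ± 2129 (SD, n = 5) (log2 fold change -0.22, limma adjusted p 0.435). The heterozygous Fdps values ran from 5519 in library 1 to 10718 in library 5, a range that took in all 5 controls.

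Some of these counts can hold reads of near copies. Acat2 shares 1477 bases at 97.7% identity with Acat3, Fdps has 4 predicted copies, Idi1 has 2 and Fdft1 has 1, and reads of a gene and its copies may have been divided between them.

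In the squalene and sterol steps no gene of 11 was called, and 8 of 11 log2 fold changes were below 0, with a median of -0.19, beside -0.19 over all genes tested and 0.08 over those with a mean of at least 100 normalized reads. With quantile normalization the median of the 11 was -0.23, where that of all genes was -0.02. It was -0.252 beside -0.241 with upper quartile scaling, and -0.125 beside -0.126 with TMM scaling. With quantile normalization and with upper quartile scaling 10 of the 11 were below 0, and with TMM scaling 7. Sqle, squalene epoxidase, the first oxygen-requiring step, had the smallest p of the group. It was at 172, 139.5, 123, 221 and 124 in control libraries 1 to 5 and at 83.0, 117, 89.7, 93.7 and 121 in heterozygous libraries 1 to 5. The groups were separated by a narrow gap, between heterozygous library 5 and control library 3, and control library 4 was the highest of all. Its log2 fold change was -0.60 (SE 0.20, limma adjusted p 0.0580), and it was called lower with upper quartile scaling (limma adjusted p 0.0433), with edgeR (adjusted p 0.0396) and with DESeq2 (adjusted p 0.0284). Hsd17b7, a keto reductase of sterol demethylation, was likewise apart without a call, at 98.7 ± 10.5 (SD, n = 5) in the controls and 72.1 ± 12.4 (SD, n = 5) in the heterozygous libraries (log2 fold change -0.46, limma adjusted p 0.0991).

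The remaining 9 sterol enzymes also did not pass the test. Fdft1, squalene synthase, was at 449 ± 13.2 (SD, n = 5) and 463 ± 97.8 (SD, n = 5) in control and heterozygous libraries, and 774 bases, 18.3% of its exon length, overlap Ctsb on the opposite strand, whose reads cannot be told apart here. Lss, lanosterol synthase, was at 223 ± 36.8 (SD, n = 5) and 188 ± 25.7 (SD, n = 5). Cyp51, the lanosterol demethylase, was at 199 ± 24.9 (SD, n = 5) and 194 ± 23.2 (SD, n = 5). In all 3, the intervals of the log2 fold change held 0. Of the genes that process the demethylated sterol, Tm7sf2, a sterol reductase, was at 231 ± 13.4 (SD, n = 5) and 198 ± 24.3 (SD, n = 5). Msmo1, the methylsterol oxidase, was at 387 ± 22.5 (SD, n = 5) and 367 ± 13.5 (SD, n = 5). Nsdhl, the decarboxylating sterol dehydrogenase, was at 358 ± 40.2 (SD, n = 5) and 312 ± 21.8 (SD, n = 5). All 3 had intervals that held 0.

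At the end of the route stand an isomerase, a desaturase and a reductase. Ebp, the sterol isomerase, was at 1096 ± 105 (SD, n = 5) in the controls and 1369.9 ± 257 (SD, n = 5) in the heterozygous libraries (log2 fold change 0.30, limma adjusted p 0.146). Its heterozygous values parted, with 1543, 1612, 1054, 1132 and 1508 in libraries 1 to 5: libraries 1, 2 and 5 lay above all controls and libraries 3 and 4 inside their range. Sc5d, the sterol desaturase, was at 686 ± 89.5 (SD, n = 5) and 691 ± 100.2 (SD, n = 5). Dhcr7, the reductase that yields cholesterol itself, was at 523 ± 35.9 (SD, n = 5) and 457 ± 62.0 (SD, n = 5) (log2 fold change -0.20, limma adjusted p 0.260). Over the 18 enzymes of synthesis, 0 were called higher and 1 lower, beside 5% and 8.01% of all genes tested. Their log2 fold changes were below 0 in 12. The median was -0.11, beside -0.19 over all genes tested and 0.08 over those with a mean of at least 100. With quantile, upper quartile and TMM scaling, 15, 16 and 10 of the 18 were below 0. The medians were then -0.16, -0.17 and -0.04, beside -0.02, -0.24 and -0.13 over all genes.

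**Figure D3:**
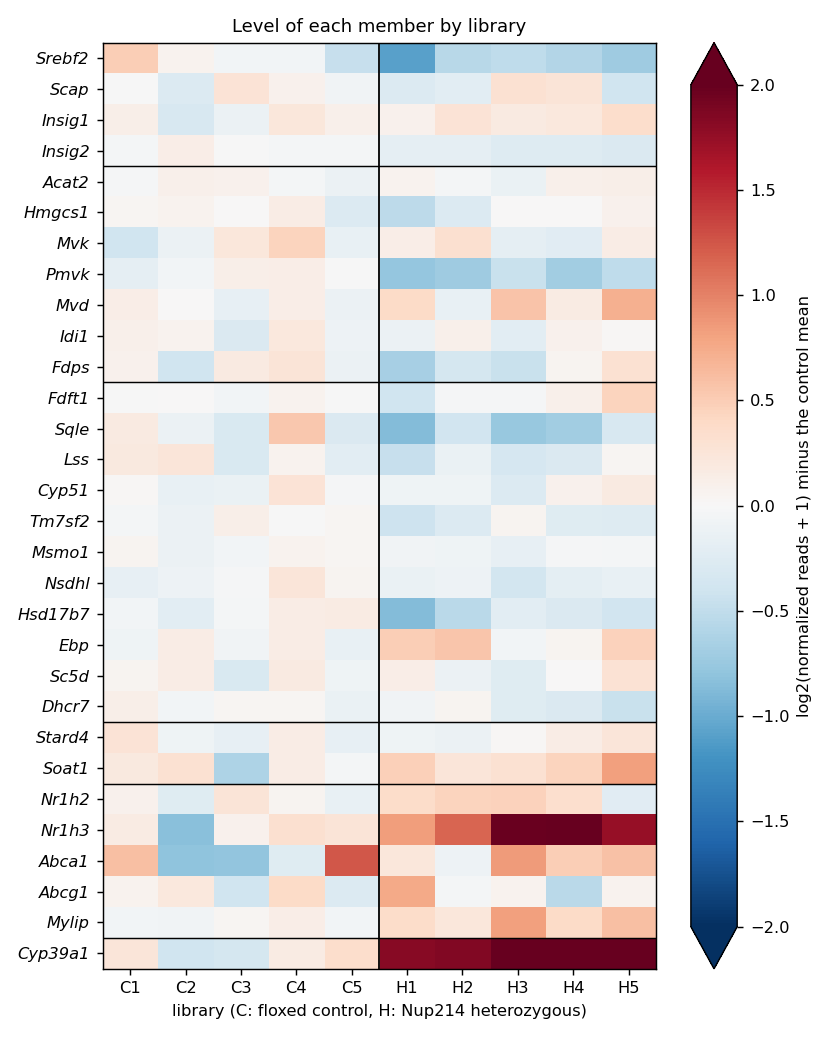
Level of each member in each library as log2(normalized reads + 1) minus the mean of the 5 control libraries; colour runs from -2 to 2, and stronger values take the end colour. Cyp39a1 and Nr1h3 are red across all heterozygous libraries, Srebf2 and Pmvk are blue, and so are Sqle and Hsd17b7 in most of them, while the other rows of the sterol steps are paler or mixed.

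Transport and esterification were represented by a pair of genes, and neither was called. Stard4, a cytosolic sterol carrier, was at 412 ± 58.9 (SD, n = 5) and 422 ± 44.5 (SD, n = 5) in the control and heterozygous libraries. Soat1, which esterifies cholesterol for storage in droplets, was at 1247, 1356, 714, 1217 and 1061 in control libraries 1 to 5 and at 1527, 1289, 1357, 1496 and 1928 in heterozygous libraries 1 to 5. Control library 3 was far below the rest, and heterozygous library 2 fell inside the control range, so the groups overlapped. Its log2 fold change of 0.46 had an adjusted p of 0.0866 in limma, and of 0.0467 with TMM scaling.

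In the liver X receptor group, 2 of 5 genes were called higher and none lower. Over all genes tested 5% were called higher, and 10.2% of those with a mean of at least 100. The 5 genes were chosen with earlier results of these data known. All 5 log2 fold changes were above 0, with a median of 0.41, although that of Abcg1 was below 0 in 6 of 23 alternatives. Nr1h3 (chr2:91184061-91202834, minus strand, mm10) and Nr1h2 encode the alpha and beta receptors. Nr1h3 was at 15.9, 7.39, 15.0, 17.7 and 17.0 normalized reads in control libraries 1 to 5 and at 25.8, 32.7, 57.9, 74.0 and 49.2 in heterozygous libraries 1 to 5. The groups did not overlap, and heterozygous libraries 1 and 2 were below libraries 3, 4 and 5. From 14.6 ± 4.17 (SD, n = 5) to 47.9 ± 19.4 (SD, n = 5), the log2 fold change was 1.61 (SE 0.34, limma adjusted p 0.0121), and with libraries 3, 4 and 5 left out it was 0.999 (limma adjusted p 0.121). Nr1h2 was at 1393, 1108, 1578, 1362 and 1188 in the controls and at 1699.5, 1782, 1803, 1656 and 1127 in the heterozygous libraries. Heterozygous libraries 1 to 4 lay above all controls and library 5 near the bottom of their range, so the groups overlapped (log2 fold change 0.27, limma adjusted p 0.211).

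Nr1h3 is well known from macrophages, and markers of monocytes and macrophages moved in the same direction in part. Of 12 such markers 11 were tested, of which 5 were called higher (Cd68, C1qa, C1qb, C1qc and Mrc1) and 1 lower (Ly6c2), and Marco was at 0 in every control library. Their summed level was 78079.5 to 114314.0 in the controls and 24611.7 to 94578.1 in the heterozygous libraries, where Ly6c2 makes up much of the sum. C1qa, a macrophage complement gene, was at 69.4, 21.3, 52.5, 73.1 and 38.0 in control libraries 1 to 5. In heterozygous libraries 1 to 5 it was at 99.2, 80.1, 209, 243 and 181, with 1 and 2 below 3, 4 and 5. C1qb, C1qc and Mrc1 held this order too, which 18.1% of all genes tested showed. Cd68 held the reverse order, at 2685, 2743, 2437, 2148 and 2554 in heterozygous libraries 1 to 5. Csf1r and Adgre1 were among the markers not called (log2 fold changes -0.07 and -0.003). The part of such cells in the Nr1h3 result was not tested.

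The exporter genes did not pass the test. Abca1, which loads cholesterol onto lipid-poor apolipoproteins, was at 13.9, 4.62, 4.69, 7.31 and 22.3 normalized reads in control libraries 1 to 5 and at 10.5, 8.17, 16.7, 12.9 and 13.8 in the heterozygous libraries. It was the lowest member, its control values spanned the whole heterozygous range, and control libraries 1 and 5 were above most heterozygous values. Abcg1, which exports to mature lipoproteins, was at 507, 561, 368, 630.4 and 401 in the controls and at 817, 469, 507, 334 and 506 in the heterozygous libraries. Heterozygous library 1 was the highest and library 4 the lowest of all 10, so the groups overlapped fully. The log2 fold change was 0.41 for Abca1 (95% interval -0.52 to 1.34, limma adjusted p 0.535) and 0.06 for Abcg1 (95% interval -0.40 to 0.52, limma adjusted p 0.867), so these data leave room for a change of either gene in either direction.

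Mylip, an E3 ubiquitin ligase that limits receptor uptake of lipoproteins (chr13:45389742-45412022, plus strand, mm10), was at 164, 161, 174, 186 and 162 in control libraries 1 to 5 and at 219, 198, 299, 220.2 and 257 in heterozygous libraries 1 to 5. All heterozygous values were above all control values, with library 2 only just above control library 4 and library 3 the highest. The mean rose from 169 ± 10.6 (SD, n = 5) to 239 ± 39.9 (SD, n = 5) (log2 fold change 0.48, SE 0.14, limma adjusted p 0.0406). This call stood close to the threshold: it was lost in 13 of 23 alternatives, with adjusted p between 0.0132 and 0.215, among them the fit without any 1 of the 5 control libraries.

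Cyp39a1, a hydroxylase that acts on oxysterols on the way to bile acids (chr17:43667425-43751431, plus strand, mm10), showed the largest difference of the 30 members. It was at 106, 67.5, 70.3, 100.2 and 114 normalized reads in control libraries 1 to 5 and at 319.7, 326, 388, 549 and 419.8 in heterozygous libraries 1 to 5. Every heterozygous library stood well above the highest control, and heterozygous library 4 was the highest. The mean rose from 91.6 ± 21.3 (SD, n = 5) to 400.5 ± 93.0 (SD, n = 5), a 4.37-fold difference (log2 fold change 2.12, SE 0.20, limma adjusted p 7.73e-05). The log2 fold change lay between 1.84 and 2.31 in all 23 alternatives, each of which kept the call.

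Within the heterozygous group, Cyp39a1, Nr1h3, Abca1 and Mylip were all lower in libraries 1 and 2 than in libraries 3, 4 and 5, as were Pmvk, Hsd17b7, Hmgcs1, Tm7sf2 and Stard4, 9 of 30 members in all. Libraries 1 and 2 were above the other heterozygous libraries for 4 members, Insig2, Nsdhl, Ebp and Dhcr7. Over all genes tested the same orders were seen in 18.1% and 20.95%. The neutrophil and erythroid sums given above split in the same way, and their part in these orders was not tested. With libraries 3, 4 and 5 left out, Cyp39a1, Pmvk and Srebf2 kept their calls, while Ebp and Hsd17b7 were also called (limma adjusted p 0.00955 and 0.0387).

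Per kb of exon, the levels of the 30 genes spanned the range from 1.02 normalized reads per kb for Abca1 to 2098 for Fdps in the control mean. Lengths join all annotated exons of a gene (10.79 kb for Lss), so the order of genes depends on the annotation too. For Fdps, 26.7% of that length overlaps the annotated gene Gm43738 on the same strand. Ebp (475), Nr1h2 (395) and Acat2 (292) followed Fdps, then Pmvk (177) and Srebf2 (161). The beta receptor gene was thus far above the alpha receptor gene, Nr1h3, which stood at 5.81 per kb in the control mean and 19.0 in the heterozygous mean. Abcg1 at 67.6 per kb was likewise above Abca1. Sqle (28.1), Lss (20.7) and Hsd17b7 (19.3) were the lowest enzymes of synthesis. Cyp39a1 moved from 30 to 131 per kb, above most members in the heterozygous mean.

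**Figure D4:**
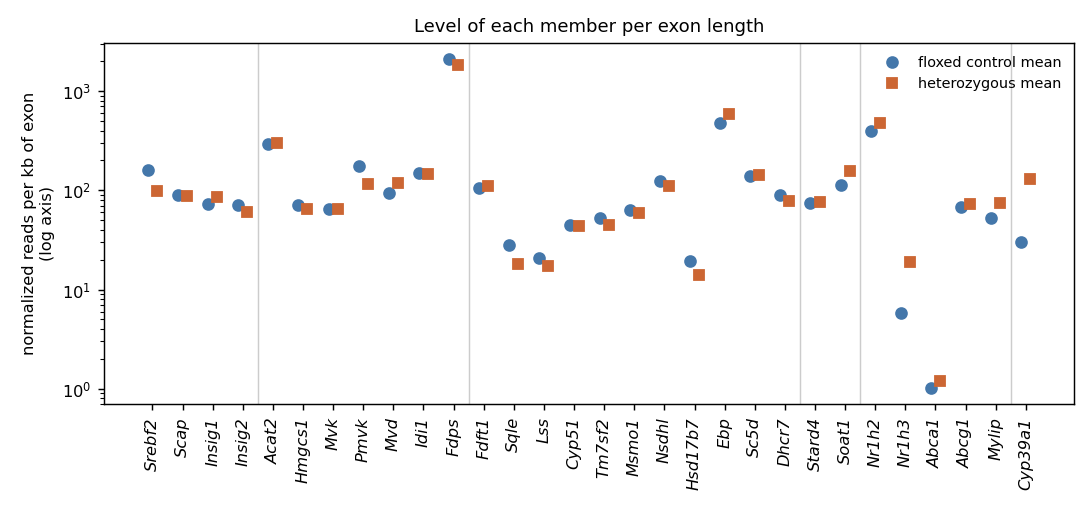
Mean normalized reads per kb of exon of each member on a log axis, in floxed control (circles) and heterozygous libraries (squares), n = 5 each, with vertical lines between steps. Most pairs of symbols nearly coincide, and Nr1h3 and Cyp39a1 show the largest steps upward.

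Outside the 30 genes, a list of 51 further genes of sterol handling was examined, of which 48 were tested. Of these, 10 (20.8%) were called higher and 1 (2.08%) lower, beside 5% and 8.01% of all genes tested. With a mean of at least 100 normalized reads, 8 of 38 (21.1%) were called higher, beside the 10.2% given above. This list too was chosen with earlier results of these data known, so its shares are no test of the pathway. The median log2 fold change of the 48 was 0.08, beside -0.19 over all genes tested and 0.08 over those with a mean of at least 100.

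Of 8 genes of SREBP processing and sterol-regulated degradation, 1 was called. Rnf145, a sterol-responsive ubiquitin ligase, rose from 415 ± 55.9 (SD, n = 5) to 622 ± 50.6 (SD, n = 5) (log2 fold change 0.59, limma adjusted p 0.0103). Srebf1, the paralog of Srebf2 that governs fatty acid genes, was at 615 ± 144 (SD, n = 5) and 642 ± 161 (SD, n = 5). Of 8 genes of isoprenoid branches and acetoacetyl-CoA supply, the synthetase gene Aacs rose from 1769 ± 183 (SD, n = 5) to 2955 ± 442 (SD, n = 5) (log2 fold change 0.73, limma adjusted p 0.00423). Dhdds, which makes the chain of dolichol, rose from 977 ± 92.6 (SD, n = 5) to 1332 ± 167 (SD, n = 5) (limma adjusted p 0.0261), a call lost in 9 of 23 alternatives. None of the 3 electron donors of sterol steps was called.

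Of 16 genes of lysosomal release, transport and uptake, 3 carriers were called higher and none lower, beside 5% and 8.01% of all genes tested. Gramd1a, which moves sterol from the plasma membrane to the endoplasmic reticulum, rose from 1039 ± 101 (SD, n = 5) to 1633 ± 231 (SD, n = 5) (log2 fold change 0.65, limma adjusted p 0.00660). Stard3, a carrier of late endosomes, rose from 493 ± 44.1 (SD, n = 5) to 682 ± 58.5 (SD, n = 5), and the oxysterol-binding protein gene Osbpl2 from 1104 ± 86.2 (SD, n = 5) to 1419.8 ± 133 (SD, n = 5). The call of Stard3 was lost in 5 of 23 alternatives and that of Osbpl2 in 13.

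Of 6 partners and targets of the liver X receptors, 2 were called, both higher, beside 5% of all genes tested that were called higher. Smpdl3a, a phosphodiesterase gene known as a receptor target in human macrophages, was at 5836, 6309, 4367, 7684 and 6691 normalized reads in control libraries 1 to 5 and at 19129, 12285, 19042, 22616 and 21722 in the heterozygous libraries. No heterozygous value came near the controls, and the log2 fold change was 1.61 (SE 0.18, limma adjusted p 0.000330). Arl4c, a small GTPase gene, rose from 23.4 ± 6.03 (SD, n = 5) to 56.0 ± 15.3 (SD, n = 5) (1.22, limma adjusted p 0.0138), a call lost with heterozygous libraries 3, 4 and 5 left out. The other 4, Rxra, Rxrb, Abca7 and Lpcat3, did not pass the test, and the log2 fold change of Lpcat3, a phospholipid remodelling gene, was -0.38 (limma adjusted p 0.0659).

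Of 10 genes of oxysterol and bile acid metabolism and sensing, 7 were tested. Hsd3b7, a dehydrogenase of bile acid synthesis, rose from 964 ± 23.0 (SD, n = 5) to 1424 ± 179.8 (SD, n = 5) (log2 fold change 0.55, limma adjusted p 0.00799). Annotated genes overlap 62.4% of its exon length on the opposite strand and 62% on the same strand, and their reads cannot be told apart here. Cyp27a1, the mitochondrial sterol hydroxylase, was low, at 0.992, 0, 4.69, 8.35 and 7.86 in the controls and 6.68, 8.17, 34.1, 55.9 and 49.2 in the heterozygous libraries. Heterozygous libraries 1 and 2 were inside the control range and libraries 3, 4 and 5 were far above it, and the call (limma adjusted p 0.0377) was lost in 8 of 21 alternatives. Gpr183, the receptor through which oxysterols guide migrating immune cells, was at 98.2, 64.7, 72.2, 50.1 and 83.8 in the controls and at 27.7, 23.7, 25.4, 17.2 and 47.7 in the heterozygous libraries, with heterozygous library 5 just below control library 4. It was the 1 gene of the 48 called lower, with a log2 fold change of -1.39 (limma adjusted p 0.00977). Gpr183 is known from B cells and dendritic cells, and marker sums of both differed without overlap. The sum of 8 plasmacytoid dendritic markers was 1399.9 to 2114 in the controls and 912 to 1203 in the heterozygous libraries. Of 6 tested, 1 was called higher (Bst2) and 2 lower (Tcf4, at -3.47 on the log2 scale, and Runx2), and Cox6a2 was at 0 in every control. The sum of 8 B cell markers was 4405 to 6625 in the controls and 9105 to 29796 in the heterozygous libraries, with 2 of 8 called higher (Cd79a and Ighm) and 1 lower (Cd79b). The part of such cells in the Gpr183 result was not tested. Ch25h, Cyp7b1 and Cyp11a1 had too few libraries with a read to be tested.

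**Figure D5:**
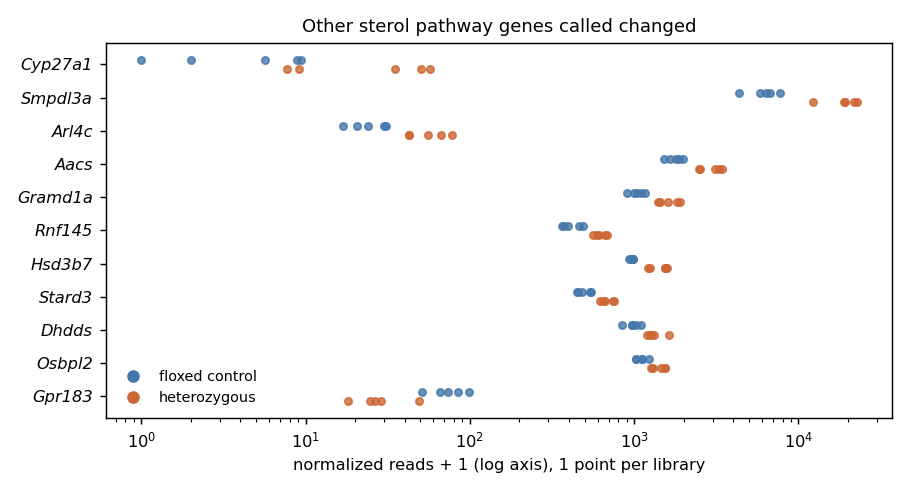
Normalized reads + 1 per library on a log axis for the 11 further sterol genes that were called, 1 point per library, floxed control in blue and heterozygous in orange, 5 libraries each. The heterozygous points lie to the right of the controls for 9 genes, overlap them for Cyp27a1 and lie to the left for Gpr183.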

How the data were processed

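Total RNA of sorted leukemia stem cells was extracted with a miRNeasy kit, amplified by Geo-seq and made into TruePrep libraries, per the labels' protocols. The submitters' processing notes name DESeq2, HTSeq, Cufflinks 2.1.1 and Bowtie 0.12.9 and the build mm10, without saying what each was used for. No molecular identifiers or strand are described. Intervals cover the spread between libraries, and depth adds counting error of unknown size where amplified copies were counted.

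The authors' deposited signal, although named as FPKM, holds read counts scaled by 1 factor for each library, since all values in 8 libraries, and at least 99.9958% in the other 2, were whole multiples of a library's step within 0.01. It is not per gene length, and is called normalized reads. Lengths for levels per kb, positions and overlaps came from GENCODE for mm10.

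All 10 libraries were grouped by labelled genotype and fitted on log2(value + 1) by limma 3.58.1 with its intensity trend (R 4.3.3), for genes with at least 1 in at least 5 libraries. P-values were Benjamini-Hochberg adjusted over 22458 genes, with a threshold of 0.05. Low genes' changes are understated on this scale. The fit was tested on simulated data. The 30 members, the 51 further genes and the marker lists were chosen with earlier results of these data known. All members are named, with each library's values for called members, for the smallest p of a step without a call and for paralog pairs, plus Ebp, shown after its values were seen. Further genes are named where called, with Srebf1, Lpcat3 and the genes of an uncalled or untested remainder added after their values were seen. Some genes of the pathway are not reported here.

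Alternatives were quantile, upper quartile and TMM scaling, a pseudocount of 0.1, a stricter filter (at least 5 in 5 libraries) or none, array quality weights, a replicate block, leaving out libraries singly or as heterozygous libraries 1 and 2 or 3, 4 and 5, and, on the recovered reads, edgeR 4.0.16 and DESeq2 1.42.0. An edgeR fit without control library 1, whose step of 0.992 is hard to tell from 1, was added after seeing the data. The lowest chi-square per degree of freedom between libraries of a group was 15.5, so none was treated as another library sequenced again. This value cannot show whether the libraries came from separate mice. BLAST 2.17.0 was used to find near copies with at least 95% identity over 200 bases.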

Additional observations from a re-analysis of the deposited data

Results flagged for a closer look

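Over the 60 groups of 5 libraries formed by the 30 members, 3 held a library that stood apart from the other 4 by Dixon's test at the 95% level, where chance flags about 1 group in 20. Insig2 was at 268 normalized reads in control library 2, against 238 to 246 in the other controls. Nr1h2 was at 1127 in heterozygous library 5, against 1656 to 1803 in the other heterozygous libraries, and the groups would not overlap without it. Nr1h3 was at 7.39 in control library 2, against 15.0 to 17.7 in the other controls, and it was called higher with that library left out.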

How the results depend on the processing

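Of 690 refits of the 30 members (23 alternatives each), 16 lost a call, 6 gained one and none turned a called direction, while fold changes near 0 changed sign, that of Mvk in 7 and that of Abcg1 in 6 of 23. The lost calls were those of Mylip (13), Srebf2 (2) and Nr1h3 (1). The count of members called lower was 2, and 1 with the replicate block and 1 without control library 1, with a range of 1 to 2 over fits without 1 library; it was 3 with upper quartile scaling, edgeR, DESeq2 and without heterozygous libraries 3, 4 and 5. Members called higher ranged from 2 to 3 over those fits and from 2 to 4 over all alternatives. Further sterol genes called higher numbered 10, but 6 with edgeR without control library 1, and 7 to 11 over fits without 1 library. Further genes called lower numbered 1, but 2 with quantile normalization, 2 with array quality weights, 2 with edgeR, 7 without heterozygous libraries 1 and 2, and 1 to 2 over fits without 1 library. The cause was not tested. Counts over all genes differed by over 1.5 times in many settings, among them these: 1122 genes were called higher and 1798 lower, against 559 and 599 without control library 1, 780 and 517 with quantile normalization, 653 and 762 without control library 5, 703 and 945 with the replicate block, 2095 and 2707 without heterozygous libraries 1 and 2, and 1010 and 808 of 13242 genes tested with edgeR.

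Equal replicate numbers were not treated as pairs in the main fit. Deviations of same-numbered libraries correlated between -0.0905 and 0.0817, and no library pair correlated best with its own number. These correlations cannot show whether the libraries were paired by design. With the replicate block, Srebf2 had a limma adjusted p of 0.0518 and Mylip of 0.0780, and the other 3 member calls were made again. Low genes, such as Abca1 and Cyp27a1, are limited by depth.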
